A study of Mus musculus with 15 samples.

Results

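Cells sense oxygen through a small set of enzymes and transcription factors, and 10 genes of this system were followed here across mouse mammary tumors and mammary glands. They were picked by gene symbol as hypoxia-inducible factors, oxygen-sensing hydroxylases and hypoxia-induced genes outside glycolysis: Hif1a, Epas1, Egln1, Egln3, Car9, Car12, Adm, Bnip3, Ndrg1 and Ankrd37. Each symbol matched exactly 1 of the 51826 genes in the expression tables, and all 10 passed the filter on low values in all 7 comparisons. The tables hold RNA-seq values of 15 libraries from 13 mice, all labelled as strain FVB. Of the Trim24COE tumors, mice 64, 567 and 897 gave 3 metaplastic carcinosarcomas and mice 89, 273_5 and 3956 gave 3 carcinomas. They came from Trim24 LSL;MMTV-Cre females that carry a Flag-tagged mouse Trim24 transgene behind a lox-stop cassette. MMTV-Cre, line D, is the driver that removes the stop in mammary epithelium, and the transgene sits at a single site. The 4 control mammary glands (mice 133, 392, 417_3 and 517_3) came from age-matched virgin MMTV-Cre Tg/0 females, which carry the same Cre. The 3 non-TRIM24 tumors (mice 219, FVB001 and FVB002) arose spontaneously in FVB or FVB/129 mice whose genotype is labelled unknown, and which of these mice carried Cre is not given. Tumor-bearing mice were aged until a tumor could be felt, and the ages that the study lists for single tumor mice are not used here.

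In well-oxygenated cells the prolyl hydroxylases encoded by the Egln genes modify the alpha subunits HIF-1α (Hif1a) and HIF-2α (Epas1). The von Hippel-Lindau protein then marks the modified subunits for destruction. When oxygen falls, the alpha subunits persist, pair with ARNT and bind short DNA motifs with the core ACGTG or GCGTG near their target genes. HIF-α is controlled mainly at the protein level, which RNA-seq does not measure, whereas Egln3, Car9, Adm, Bnip3, Ndrg1 and Ankrd37 are known as genes whose RNA rises in hypoxic cells. In breast tumors CAIX, the product of Car9, is a widely used tissue marker of hypoxia.

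The stretches here show where this motif core lies nearest to the RefSeq start of the hypoxia genes. They were read from RefSeq promoters (GRCm38.p6, 250 bases before to 50 after the start), are written 5′ to 3′ on the strand of the gene, and have ACGTG or GCGTG, or its reverse complement CACGT or CACGC, in capitals.
Hif1a (chr12:73907785-73907814, + strand): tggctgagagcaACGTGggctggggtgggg
Egln1 (chr8:124949305-124949334, - strand): gggccgtggtgtACGTGcagcgcgcgcgga
Egln3 (chr12:54204086-54204115, - strand): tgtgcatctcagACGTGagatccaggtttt
Car9 (chr4:43506996-43507025, + strand): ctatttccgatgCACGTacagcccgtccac
Adm (chr7:110627591-110627620, + strand): ggcaaatctgacCACGCccaccgtccgccc
Ankrd37 (chr8:45999839-45999868, - strand): cagtgtttgggtACGTGaggccgcagcggg
Bnip3 (chr7:138909597-138909626, - strand): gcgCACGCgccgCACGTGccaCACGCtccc
The stretch of Bnip3 was chosen because it holds 4 matches, counting both strands of the palindrome CACGTG. The promoter table listed 8 of the 10 genes, of which 7 held a match, with 5 in Bnip3, 4 in Ankrd37, 3 in Hif1a, 2 each in Egln1 and Adm and 1 each in Egln3 and Car9. Car12 had 0 within these 300 bases, and Epas1 and Ndrg1 were not in the table. RefSeq and GENCODE place some starts differently, so the stretches of Hif1a, Ankrd37 and Car9 lie inside the GENCODE spans given with these genes further on, and that of Egln1 overlaps its span. The motif is common: 43.77% of 32851 promoters of the same length held it, so a match describes the letters and not a bound site.

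Expression was given as TPM, an abundance corrected for transcript length and scaled to a fixed total per library, which leaves the sequencing depth behind a value unknown. First libraries of Trim24COE tumors and control glands were all in sequencing batch 1, and the 3 non-TRIM24 tumors were in batch 2 together with repeat libraries of gland 133 and carcinoma 3956. Trim24 itself ranged from 10.6 to 14.5 TPM in carcinosarcomas, from 13.9 to 24.1 TPM in carcinomas and from 14.5 to 22.4 TPM in control glands. No carcinosarcoma lay above any gland, while carcinomas and glands overlapped, with no test. The study reported more Trim24 RNA in its tumors than in Cre-only glands by qRT-PCR, which it described as predicted by its RNA-seq. The TPM values here do not show that rise. More TRIM24 and Flag protein was reported by tissue staining. Neither qRT-PCR nor staining was repeated here, and the name Trim24COE is used as the labels give it. The sources name 2 pathologists, who disagreed on the class of tumors 89, 567 and 3956, and the class in the labels was used. All 6 luminal markers (Epcam, Krt8, Krt18, Krt19, Cdh1 and Elf5) were above 0 in every library, but their summed level was 285 to 1411 TPM in carcinosarcomas against 2410 to 5781 TPM in carcinomas and 848 to 4404 TPM in glands. Libraries differed widely in fat: the summed level of 10 adipocyte markers was 26885 and 39670 TPM in glands 133 and 392 but 1772 and 1956 TPM in glands 417_3 and 517_3. It was 125 to 1312 TPM in the Trim24COE tumors, 170 TPM in tumor 219 and 55660 and 28215 TPM in tumors FVB001 and FVB002. Glands 133 and 392 also differed from glands 417_3 and 517_3 in other summed markers. Luminal markers were 848 and 1321 against 4203 and 4404 TPM. Basal markers (Krt5, Krt14, Krt17, Trp63, Acta2 and Myh11) were 265 and 348 against 3773 and 3859 TPM. Skeletal muscle markers (Ckm, Acta1, Myh4, Tnnt3, Mylpf and Myh1) were 314 and 1814 against 13.3 and 12.8 TPM. Luminal markers were 4756, 492 and 2697 TPM in tumors 219, FVB001 and FVB002. In bulk tissue, fewer cells of a type and less RNA per cell cannot be told apart.

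**Figure D1:**
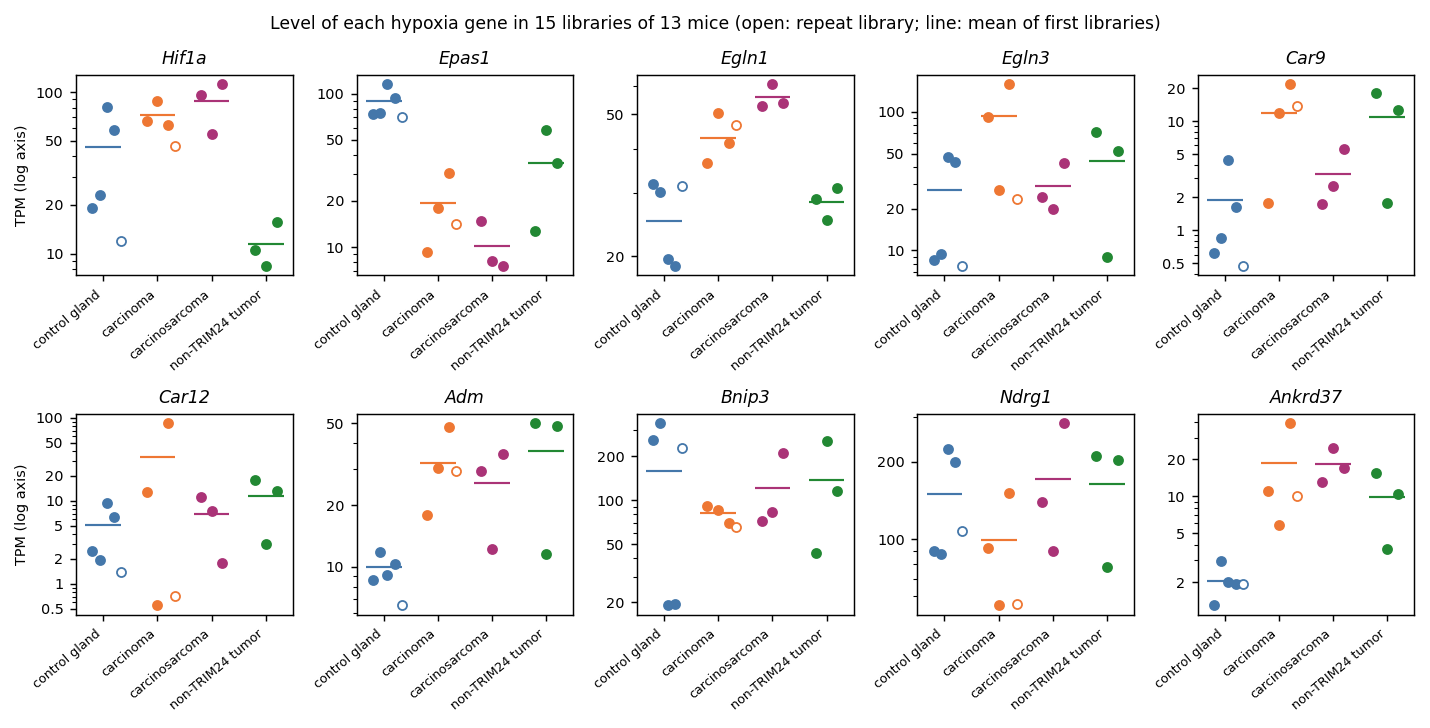
TPM (log axis) of the 10 hypoxia genes in control glands, carcinomas, metaplastic carcinosarcomas and non-TRIM24 tumors. Each filled point is the first library of a mouse, each open point a repeat library in batch 2, and lines are means of first libraries: Epas1 in all 6 Trim24COE tumors lies below all 4 glands, while Bnip3 and Egln3 split the glands into a high and a low pair.

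Compared with control glands, the Trim24COE tumors had more Ankrd37, Adm and Egln1 RNA and much less Epas1 RNA. The comparison asks what separates TRIM24-driven tumors from disease-free glands. By limma on log2(TPM + 1), 3 of the 10 genes rose and 1 fell, while 6 did not pass an adjusted p of 0.05. Of all 15196 genes tested in the same fit, 7.96% rose and 9.13% fell. The median log2 change was 0.98 over the 10 genes and -0.04 over all genes tested. The 10 genes were chosen with earlier results of these data known, so these figures describe them and are no independent test.

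Of the 2 HIF-α genes, Epas1 fell and Hif1a did not pass the test. Epas1 (chr17:86753700-86833410) encodes HIF-2α, which is abundant in endothelium and fat. It stood at 73.7, 74.3, 116.1 and 93.8 TPM in glands 133, 392, 417_3 and 517_3. It was 30.6, 9.30 and 17.9 TPM in carcinomas 89, 273_5 and 3956. In carcinosarcomas 64, 567 and 897 it was 8.07, 14.7 and 7.52 TPM, so that even the highest tumor lay below the lowest gland, a placing shared by 7.2% of all genes tested. Epas1 fell by 2.67 on the log2 scale (SE 0.37, adjusted p = 0.00123) over the 6 tumors, and it passed the threshold under all 19 alternative settings. It also passed in each class against the glands, with a log2 change of -3.06 ± 0.31 (SE, adjusted p = 0.00115) in carcinosarcomas, where 21.6% of genes lay below all glands, and -2.28 ± 0.40 (adjusted p = 0.0258) in carcinomas. The call in carcinomas held under 9 of 16 alternatives, and was lost without gland 417_3, gland 517_3 or carcinoma 3956 (adjusted p up to 0.0887).

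Most endothelial markers moved in the same direction as Epas1. All 10 markers (Pecam1, Cdh5, Kdr, Tek, Tie1, Emcn, Esam, Cldn5, Vwf and Egfl7) were above 0 in the first library of every mouse. Their summed level was 555 to 832 TPM in glands, 109 to 312 TPM in carcinomas and 270 to 579 TPM in carcinosarcomas. In the 6 tumors 4 of the 10 fell, as did 9.13% of all genes tested, and 1 of the 10 had a log2 change above 0. In carcinosarcomas 2 of the 10 fell, beside 13.1% of all genes tested. Emcn was 47.4 to 60.3 TPM in carcinosarcomas, above the 25.0 to 44.7 TPM of the glands, a placing shared by 15.4% of all genes. With the mean level of these markers as a covariate, Epas1 was lower by a log2 change of -2.27 ± 0.55 (adjusted p = 0.033) in all 6 tumors and -2.43 ± 0.39 (adjusted p = 0.0389) in carcinosarcomas. In carcinomas the value was -0.95 ± 0.63 (adjusted p = 0.639) with that covariate, and the call was lost. The covariate was 3.20 to 4.58 in carcinomas and 5.35 to 5.76 in glands, without overlap, and among carcinosarcomas only tumor 567, at 5.42, reached the glands. These fits can therefore hardly part the markers from the group, and neither a kept nor a lost call bears on endothelial content.

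Hif1a (chr12:73901375-73947530) was 55.3 to 112.7 TPM in the 6 Trim24COE tumors. It was 19.2 and 23.0 TPM in glands 133 and 392 and 81.0 and 58.5 TPM in glands 417_3 and 517_3, so tumors and glands overlapped. The log2 change was 1.00 ± 0.40 (SE, adjusted p = 0.106). With glands 133 and 392 alone as controls the change was 1.83 (adjusted p = 0.00482), and with glands 417_3 and 517_3 alone it was 0.17 (adjusted p = 0.731). The pair with more adipocyte markers, which also had lower luminal and basal markers, was the pair with less Hif1a. With the adipocyte markers as a covariate the change was 0.11 (adjusted p = 0.857). Without gland 417_3 the adjusted p was 0.0403, so the value depended on the glands used.

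Of Egln1 and Egln3, which encode the prolyl hydroxylases PHD2 and PHD3, Egln1 rose and Egln3 did not pass the test. Egln1 (chr8:124908587-124949324), the main oxygen sensor of most cells, was 32.0, 30.4, 19.7 and 18.8 TPM in glands 133, 392, 417_3 and 517_3. It was 41.6, 36.5 and 50.4 TPM in carcinomas 89, 273_5 and 3956 and 61.0, 52.7 and 53.8 TPM in carcinosarcomas 64, 567 and 897. Each of the 6 tumors exceeded each of the 4 glands, as was so for 7.39% of all genes tested. Egln1 rose by 0.96 on the log2 scale (SE 0.23, adjusted p = 0.0176) over all tumors and by 1.15 (SE 0.27, adjusted p = 0.0203) in carcinosarcomas. The change was 0.77 ± 0.29 (adjusted p = 0.178) in carcinomas. Without gland 517_3 the adjusted p was 0.0575 over all tumors, and with glands 133 and 392 alone the change was 0.63 (adjusted p = 0.096). The call in carcinosarcomas held under 11 of 16 alternative settings (adjusted p by limma up to 0.233). With the endothelial covariate the Egln1 call was lost over all tumors and in carcinosarcomas.

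Egln3 (chr12:54178981-54203860), itself a strong hypoxia target, varied widely within groups. It was 8.52 and 9.35 TPM in glands 133 and 392 and 47.4 and 43.5 TPM in glands 417_3 and 517_3. Carcinomas 89 and 273_5 had the highest levels of all libraries, 159.9 and 92.6 TPM, while carcinoma 3956 had 27.5 TPM. Carcinosarcomas 64, 567 and 897 had 20.0, 24.5 and 42.9 TPM, inside the range of the glands. The log2 change over all tumors was 1.11 ± 0.68 (adjusted p = 0.28).

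Ankrd37, a small ankyrin-repeat gene used as a hypoxia reporter, had the largest log2 change among the 10 genes that was above 0. Ankrd37 (chr8:45996902-46005707) was 1.29, 2.97, 2.00 and 1.94 TPM in glands 133, 392, 417_3 and 517_3. It was 39.4, 10.9 and 5.79 TPM in carcinomas 89, 273_5 and 3956 and 24.65, 13.02 and 17.01 TPM in carcinosarcomas 64, 567 and 897. All 6 tumors lay above all 4 glands, and the spread among carcinomas was 6.81-fold against 1.89-fold among carcinosarcomas. Ankrd37 rose by 2.48 on the log2 scale (SE 0.44, adjusted p = 0.00436) over all tumors and by 2.64 (SE 0.33, adjusted p = 0.0021) in carcinosarcomas. In carcinomas the change was 2.31 ± 0.58 (adjusted p = 0.0726). With the endothelial covariate the call in carcinosarcomas was lost (2.49 ± 0.53, adjusted p = 0.0601).

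Adm (chr7:110627661-110629820) encodes adrenomedullin, a secreted peptide that widens vessels. Its level was narrow in glands, at 8.69, 11.9, 9.16 and 10.3 TPM in glands 133, 392, 417_3 and 517_3. It was 47.9, 18.0 and 30.4 TPM in carcinomas 89, 273_5 and 3956 and 12.2, 29.2 and 35.6 TPM in carcinosarcomas 64, 567 and 897. The groups did not overlap, although carcinosarcoma 64 was close to gland 392. Adm rose by 1.33 on the log2 scale (SE 0.34, adjusted p = 0.0235) over all tumors. The adjusted p was 0.0583 in carcinosarcomas and 0.0637 in carcinomas taken alone. Its call over all tumors was lost under 8 of 19 alternative settings, among them leaving out gland 133 (adjusted p = 0.0601), 417_3 (0.0567) or 517_3 (0.0541).

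Car9 and Car12 encode membrane carbonic anhydrases that acidify the space around the cell, and both were uneven among tumors. Car9 (chr4:43506966-43513729) was 0.62, 0.85, 4.44 and 1.62 TPM in glands 133, 392, 417_3 and 517_3. Carcinomas 89 and 3956 reached 22.1 and 11.8 TPM, but carcinoma 273_5 was at 1.78 TPM. Carcinosarcomas 64, 567 and 897 were at 2.56, 1.74 and 5.53 TPM. The log2 change was 1.26 ± 0.63 (adjusted p = 0.194) over all tumors, with 3 of 6 tumors above all glands.

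Car12 (chr9:66713686-66766845) was highest of all libraries in carcinoma 89, at 86.5 TPM, and lowest in carcinoma 3956, at 0.55 TPM. These 2 tumors, both called carcinomas in the labels, differed 157-fold in Car12 while both ranked high for Car9. The other 4 tumors lay between 1.77 and 12.6 TPM and the glands between 1.96 and 9.50 TPM. The log2 change was 0.76 ± 0.94 (adjusted p = 0.614).

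Bnip3, a mitochondrial protein that drives mitophagy, gave opposite answers in different glands. Bnip3 (chr7:138890836-138909519) was 256.9 and 337.1 TPM in glands 133 and 392 and 19.0 and 19.4 TPM in glands 417_3 and 517_3, a 17.7-fold range within the control group. The 6 tumors fell between, from 69.7 TPM in carcinoma 89 to 209.7 TPM in carcinosarcoma 897. With all 4 glands the log2 change was 0.29 ± 0.80 (adjusted p = 0.833). With glands 417_3 and 517_3 alone as controls it was 2.23 ± 0.39 (adjusted p = 0.0062), and with glands 133 and 392 alone it was -1.64 ± 0.40 (adjusted p = 0.0225). Bnip3 was high in each of the 4 libraries of glands 133 and 392 and tumor FVB001 that were rich in adipocyte markers (228 to 337 TPM), at 116 TPM in tumor FVB002, whose adipocyte markers were as high as those of gland 133, and at 43.3 TPM in tumor 219, where adipocyte markers were low. With the adipocyte covariate the change in carcinosarcomas was 3.26 ± 0.62 (adjusted p = 0.00686), while in carcinomas and in all 6 tumors Bnip3 stayed short of the threshold with it (adjusted p = 0.0889 and 0.0946). That covariate was 1.80 to 3.21 in carcinosarcomas and 3.87 to 10.4 in glands. Since it did not overlap, the fit in carcinosarcomas cannot part it from the group.

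Ndrg1 (chr15:66929318-66969640), a cytoplasmic stress-response protein, ran the other way in the glands. It was 89.6 and 87.8 TPM in glands 133 and 392 and 224.7 and 199.3 TPM in glands 417_3 and 517_3. In carcinomas 89, 273_5 and 3956 it was 150.8, 92.4 and 55.2 TPM, and in carcinosarcomas 64, 567 and 897 it was 89.8, 139.3 and 283.4 TPM. Tumors and glands overlapped, with a log2 change of -0.21 ± 0.44 (adjusted p = 0.781). Glands 417_3 and 517_3 therefore had more Hif1a, Epas1, Egln3, Car9, Car12 and Ndrg1 and less Bnip3 and Egln1 than glands 133 and 392, a description of 4 libraries with no test. The part of fat cells in these values was not tested.

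**Figure D2:**
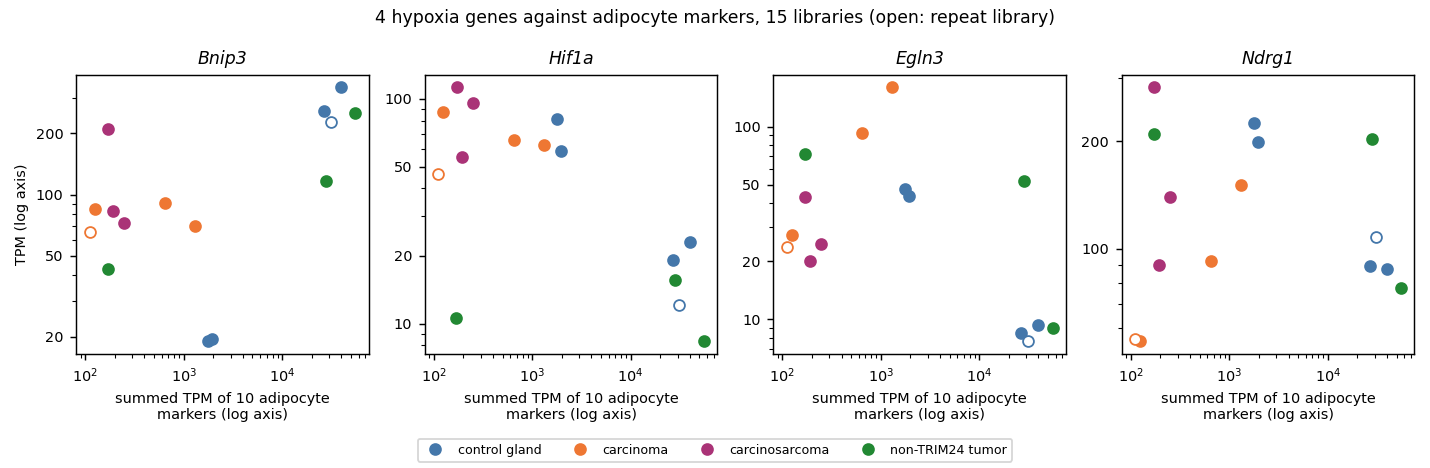
TPM (log axis) of Bnip3, Hif1a, Egln3 and Ndrg1 in each of 15 libraries against the summed TPM of 10 adipocyte markers (log axis), colored by group, with repeat libraries open. Bnip3 is above 200 TPM in 5 libraries, 4 of them rich in adipocyte markers and the fifth carcinosarcoma 897, and Egln3 is under 10 TPM only in 4 libraries rich in adipocyte markers. Luminal, basal and skeletal muscle markers, not drawn here, also differed between the glands rich and poor in adipocyte markers.

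Split by class, the carcinosarcomas carried the same calls as the pooled tumors apart from Adm, and the carcinomas carried 1 call. In carcinosarcomas against glands, 2 of the 10 genes rose (Ankrd37 and Egln1) and 1 fell (Epas1), where 9.83% of 15287 genes tested rose and 13.1% fell. Adm, Ankrd37 and Egln1 lay above all glands in all 3 carcinosarcomas, as did 15.4% of all genes. In carcinomas against glands 0 rose and 1 fell (Epas1), where 1.58% of 15479 genes rose and 1.92% fell. At an unadjusted p under 0.05, limma had 4 of the 10 above and 1 below the glands in carcinomas. Of the 15479 genes tested, 3328 had such a p in either direction. Ankrd37, Adm and Egln1 in all 3 carcinomas nevertheless exceeded all 4 glands, which 10.7% of all genes tested also did. These comparisons share the 4 glands, so their calls are not independent.

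**Figure D3:**
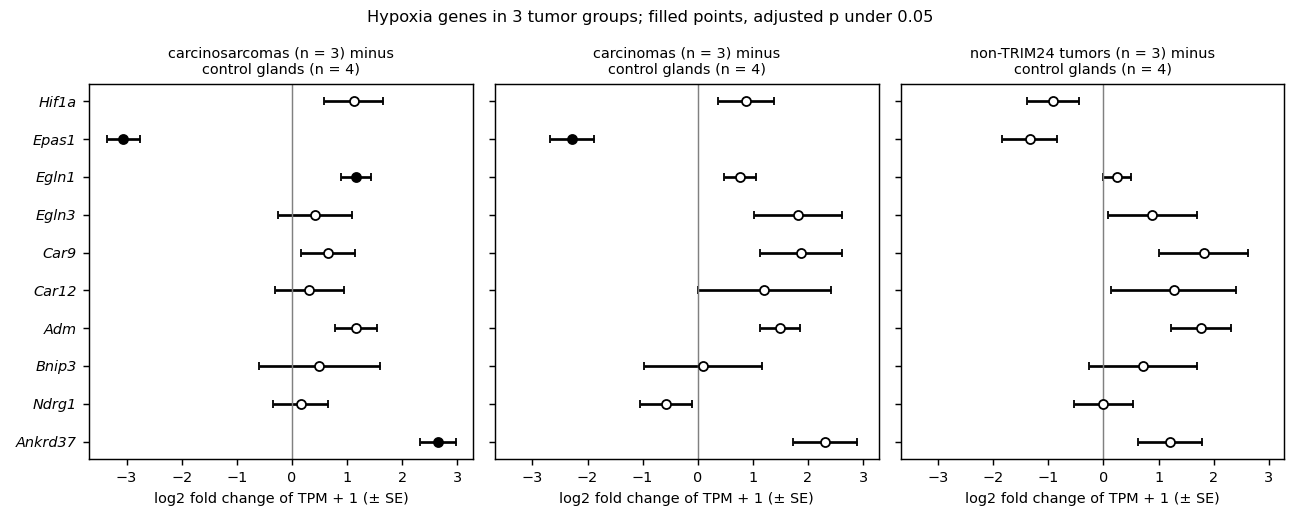
Log2 fold change of TPM + 1 with its standard error for the 10 hypoxia genes in carcinosarcomas, carcinomas and non-TRIM24 tumors (n = 3 each) minus control glands (n = 4). Filled points passed an adjusted p of 0.05: Epas1, Egln1 and Ankrd37 in carcinosarcomas, Epas1 in carcinomas, and no gene in non-TRIM24 tumors.

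Between the classes, carcinosarcomas against carcinomas, 0 of the 10 genes passed limma's test at an adjusted or an unadjusted p under 0.05. Of 14193 genes tested 0.113% rose and 0.585% fell, and 2126 had an unadjusted p under 0.05 by limma. The value nearest to the threshold was that of Egln3, with a mean of 29.1 ± 12.1 TPM (SD, n = 3) in carcinosarcomas and 93.4 ± 66.2 TPM (n = 3) in carcinomas, a log2 change of -1.40 ± 0.64 (SE, adjusted p = 0.36). Egln1 was higher in each of the 3 carcinosarcomas than in each of the 3 carcinomas, at 55.8 ± 4.50 against 42.9 ± 7.07 TPM, with an adjusted p of 0.466. Such a placing was found for 7.33% of all genes tested. Which class was more uneven depended on the gene. The highest-to-lowest ratio was 5.81 in carcinomas against 2.15 in carcinosarcomas for Egln3, 12.4 against 3.18 for Car9 and 157 against 6.33 for Car12. Epas1, Egln1 and Ankrd37 also had the higher ratio in carcinomas. Bnip3, Hif1a, Ndrg1 and Adm were the reverse, with ratios of 1.305, 1.41, 2.74 and 2.67 in carcinomas and 2.90, 2.04, 3.16 and 2.91 in carcinosarcomas. Each ratio rests on 3 mice.

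The non-TRIM24 tumors address whether a tumor of other origin shows the same RNA levels. They were compared in a fit of all 15 libraries with a batch term and with both libraries of a mouse linked, so every such value rests on the repeats of gland 133 and carcinoma 3956. Dividing each library by its median ratio moved the median log2 change of all genes from -0.27 to -0.03 for non-TRIM24 tumors against glands, from 0.27 to -0.04 for carcinomas against non-TRIM24 tumors and from 0.13 to -0.09 for carcinosarcomas against non-TRIM24 tumors. Changes are therefore to be read relative to these medians. Against control glands 0 of the 10 genes passed limma's adjusted threshold, where 0.203% of 16775 genes rose and 0.507% fell. At an unadjusted p under 0.05 by limma were 3 of the 10, and 3235 of the 16775 genes in either direction. Tumors 219 and FVB002 resembled each other, with Adm at 50.1 and 48.5 TPM, Car9 at 18.2 and 12.7 TPM and Egln3 at 72.1 and 52.4 TPM. Tumor FVB001, the library richest in adipocyte markers, had 11.6 TPM of Adm, 1.79 TPM of Car9 and 9.03 TPM of Egln3, of which Adm and Egln3 were close to glands 133 and 392 and Car9 was above both and close to the 1.62 TPM of gland 517_3. The log2 change of Adm was 1.77 ± 0.54 (adjusted p = 0.126), and it was 2.44 ± 0.47 (adjusted p = 0.0367) without FVB001.

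Hif1a was the one gene of the 10 to pass the test between carcinosarcomas and non-TRIM24 tumors. It was 10.6, 8.36 and 15.6 TPM in tumors 219, FVB001 and FVB002, against 55.3 TPM or more in each carcinosarcoma, and 29.5% of all genes likewise lay higher in each carcinosarcoma than in each non-TRIM24 tumor. The log2 difference was 2.02 ± 0.51 (adjusted p = 0.0408), where 3.24% of 16775 genes were higher and 1.52% lower in carcinosarcomas. Hif1a was also among the genes that dropped most between batches: in the repeat libraries it fell from 19.2 to 12.05 TPM in gland 133 and from 87.6 to 46.1 TPM in carcinoma 3956. Only 8.02% and 3.29% of genes fell by as much in those mice. No carcinosarcoma was sequenced in batch 2, and the difference lost its call when any of the 6 tumors was left out (adjusted p 0.0683 to 0.121) and when the 15 libraries were treated as separate samples (0.253). In carcinomas the difference from non-TRIM24 tumors was 1.76 ± 0.50 (adjusted p = 0.175). Among carcinomas against non-TRIM24 tumors 0 of the 10 genes passed, where 0.0298% of 16775 genes were lower and 0 higher. At an unadjusted p under 0.05 by limma were 1 of the 10, and 2953 of the 16775 genes in either direction. Hif1a and Egln1 lay higher in each carcinoma than in each non-TRIM24 tumor and none of the 10 lay lower throughout, beside 30.1% and 6.22% of all genes. Within batch 2, 46.1 TPM of Hif1a in carcinoma 3956 stood above the 8.36 to 15.6 TPM of the non-TRIM24 tumors and the 12.05 TPM of gland 133.

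**Figure D4:**
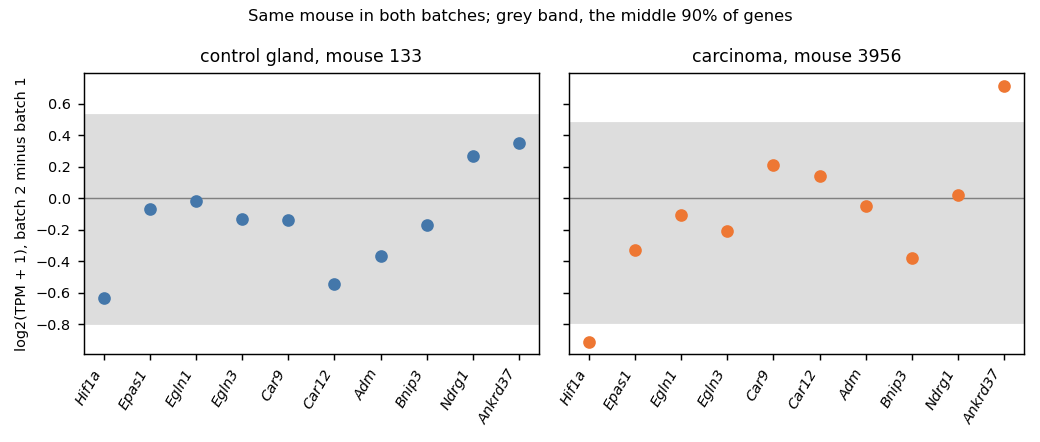
Change of log2(TPM + 1) from batch 1 to batch 2 in the same mouse for the 10 hypoxia genes, in gland 133 and carcinoma 3956. The grey band holds 90% of 16775 genes: Hif1a lies below it and Ankrd37 above it in carcinoma 3956, by -0.91 and 0.71, and all 10 genes lie inside it in gland 133.

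Ankrd37 shifted the other way between batches, from 1.29 to 1.92 TPM in gland 133 and from 5.79 to 10.1 TPM in carcinoma 3956. The 1.49-fold and 1.75-fold rise bears on the non-TRIM24 tumors, whose 15.4, 3.70 and 10.4 TPM (tumors 219, FVB001 and FVB002) all exceeded the first libraries of the glands, as 7.62% of all genes did. The log2 change of Ankrd37 against glands was 1.21 ± 0.59 (adjusted p = 0.278). Epas1 was 12.7, 58.3 and 35.4 TPM in these tumors, all below the glands like 23.9% of all genes, with a change of -1.34 ± 0.50 (adjusted p = 0.184). Hif1a likewise lay below the first libraries of all 4 glands, with a change of -0.92 ± 0.47 (adjusted p = 0.302), but not below the 12.05 TPM of the repeat library of gland 133. Egln1 was 28.9, 25.2 and 31.2 TPM, within the range of the glands and below the first library of each of the 6 Trim24COE tumors. Of all genes, 30.1% lay higher in each carcinoma and 29.5% in each carcinosarcoma than in each non-TRIM24 tumor. These placings compare TPM across batches without adjustment. Against carcinosarcomas, Egln1 differed by 0.90 ± 0.27 (adjusted p = 0.0672) and Epas1 by -1.74 ± 0.54 (adjusted p = 0.0775).

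By mean level the order for Epas1 was control glands (89.5 ± 20.1 TPM, SD), non-TRIM24 tumors (35.5 ± 22.8 TPM), carcinomas (19.3 ± 10.7 TPM) and carcinosarcomas (10.1 ± 4.02 TPM). Apart from glands against the Trim24COE classes, no pair in this order passed the test. For Egln1 the order was carcinosarcomas (55.8 TPM), carcinomas (42.9 TPM), non-TRIM24 tumors (28.4 ± 2.99 TPM) and glands (25.2 ± 6.94 TPM), and no neighbors in it differed past the threshold. For Ankrd37 carcinomas (18.7 ± 18.1 TPM) and carcinosarcomas (18.2 ± 5.91 TPM) were followed by non-TRIM24 tumors (9.83 ± 5.86 TPM) and glands (2.05 ± 0.69 TPM), again with no difference between neighbors that passed.

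The rest of the HIF machinery changed at few points. Of 14 genes for partners and regulators of HIF, 12 were tested in Trim24COE tumors against glands, of which 2 rose (Rbx1 and Eloc), 1 fell (P4htm) and 9 did not pass. Over all genes tested in that fit 7.96% rose and 9.13% fell. P4htm encodes a prolyl hydroxylase of the endoplasmic reticulum membrane that can act on HIF-α. It was 1.99, 3.08, 4.11 and 4.02 TPM in glands 133, 392, 417_3 and 517_3. It was 0.98, 0.19 and 0.29 TPM in carcinomas 89, 273_5 and 3956 and 0.29, 0.79 and 0.23 TPM in carcinosarcomas 64, 567 and 897, and 9.41, 6.34 and 7.27 TPM in tumors 219, FVB001 and FVB002. No Trim24COE tumor reached 1 TPM, whereas every gland and every non-TRIM24 tumor exceeded it. P4htm thus passed the filter only through the groups in which it was high, and a gene that enters this way is bound to differ, so its tests describe these libraries and carry less weight than those of the other genes. P4htm fell by 1.55 on the log2(TPM + 1) scale (SE 0.25, adjusted p = 0.00255) against glands, a scale that understates the change of so low a gene, and the adjusted p was 0.0188 without a filter (0.0638 in carcinosarcomas and 0.23 in carcinomas taken alone). It was also lower than in non-TRIM24 tumors, by a log2 difference of -2.35 ± 0.34 (adjusted p = 0.00742) in carcinosarcomas and -2.32 ± 0.33 (adjusted p = 0.0327) in carcinomas. The call in carcinosarcomas against non-TRIM24 tumors held in all 11 alternative settings, and that in carcinomas in 6 of 12. In carcinomas against glands the change was -1.54 ± 0.33 (adjusted p = 0.0469), a call that held in 6 of 16. Against the glands the call was lost with the endothelial covariate (adjusted p = 0.0638).

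Rbx1 and Eloc, parts of the ubiquitin ligase through which the von Hippel-Lindau protein works, rose by 0.79 (SE 0.23, adjusted p = 0.0386) and 0.82 (SE 0.26, adjusted p = 0.0488) in Trim24COE tumors. In carcinosarcomas they were joined by their partner Elob, with a log2 change of 1.10 ± 0.30 (adjusted p = 0.0321). Vhl itself was 16.8 to 20.7 TPM in the 6 tumors and 10.5 to 15.5 TPM in the glands, with an adjusted p of 0.0962. Calls for Rbx1 and Eloc over all tumors were unsteady, since they held under 5 and 4 of 19 alternative settings, and that for Elob in carcinosarcomas held under 8 of 16 (adjusted p up to 0.203).

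Among 36 further HIF targets outside glycolysis, genes that modify collagen led those that rose. In Trim24COE tumors 11 of the 36 rose, 4 fell and 21 did not pass, and the median log2 change was 0.46. Of all genes tested 7.96% rose and 9.13% fell, with a median log2 change of -0.04. The lists were chosen with earlier results of these data known. P4ha1, a collagen prolyl 4-hydroxylase subunit, was 12.3 to 19.9 TPM in glands and 61.5 to 152.1 TPM in tumors and rose by 2.45 (SE 0.27, adjusted p = 0.00041). Plod2, a collagen lysyl hydroxylase, rose by 2.25 (SE 0.36, adjusted p = 0.00254), and Loxl2, which cross-links collagen, rose by 3.09 (SE 0.58, adjusted p = 0.00546). Calls for these 3 genes held under all 19 alternative settings. The same 3 genes led in carcinosarcomas, where 10 rose and 5 fell, beside 9.83% and 13.1% of all genes tested. Loxl2 stood at 112.3, 84.8 and 88.1 TPM in tumors 567, 64 and 897 against 2.53 to 10.1 TPM in glands. In carcinomas P4ha1 (2.10 ± 0.27, adjusted p = 0.0144) and Plod2 (1.74 ± 0.35, adjusted p = 0.0395) were the 2 that rose, and these calls held under 14 and 6 of 16 alternatives (adjusted p up to 0.148 and 0.441). Of all genes tested in carcinomas 1.58% rose and 1.92% fell. The summed level of 6 fibroblast markers was 542 to 1406 TPM in glands, 221 to 2186 TPM in carcinomas and 1599 to 5979 TPM in carcinosarcomas, and its part in these values was not tested.

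The 4 targets that fell in Trim24COE tumors were Stc2, Angptl4, Rora and Zfp395. Stc2, which encodes the secreted stanniocalcin 2, was 17.5 to 40.4 TPM in glands and 1.07 to 5.14 TPM in tumors and fell by 2.79 (SE 0.41, adjusted p = 0.00165). Angptl4, an inhibitor of lipoprotein lipase, fell by 2.25 (SE 0.38, adjusted p = 0.00305) and the nuclear receptor gene Rora by 1.60 (SE 0.35, adjusted p = 0.0114). In carcinosarcomas Trf, the iron carrier transferrin, and Zfp395 fell by 3.38 (SE 0.53, adjusted p = 0.00488) and 1.91 (SE 0.34, adjusted p = 0.00761). In carcinomas Angptl4 fell by 2.7 (SE 0.43, adjusted p = 0.0225) and Stc2 by 2.73 (SE 0.48, adjusted p = 0.026), calls that held under 10 and 8 of 16 alternatives. Vegfa, the best known angiogenic HIF target, was 45.5 to 176.8 TPM in tumors and 72.7 to 110.3 TPM in glands, with a log2 change of 0.06 ± 0.41 (adjusted p = 0.941).

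**Figure D5:**
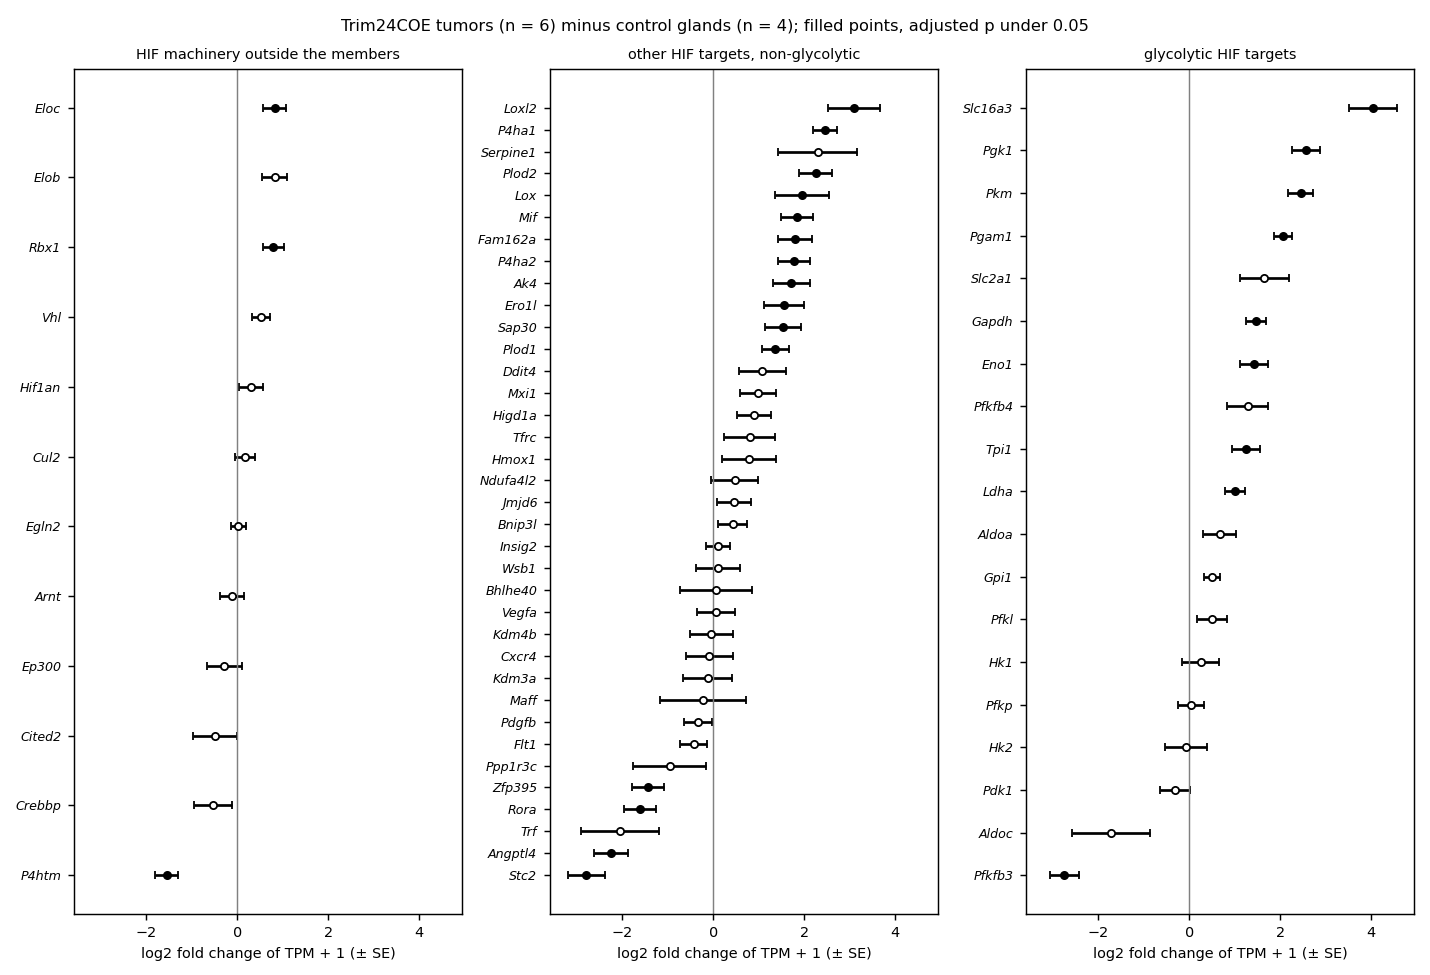
Log2 fold change of TPM + 1 with its standard error in Trim24COE tumors (n = 6) minus control glands (n = 4) for 3 lists: 12 tested genes of the HIF machinery, 36 non-glycolytic and 19 glycolytic HIF targets. Filled points passed an adjusted p of 0.05, and values run from 4.04 for Slc16a3 to -2.79 for Stc2.

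Of 19 glycolytic HIF targets 8 rose and 1 fell in Trim24COE tumors, with a median log2 change of 1.01. Of all genes tested 7.96% rose and 9.13% fell. This list too was chosen with earlier results of these data known. Pgk1 rose by 2.56 (SE 0.31, adjusted p = 0.000645), Pkm by 2.45 (SE 0.27, adjusted p = 0.00041) and Pgam1 by 2.06 (SE 0.20, adjusted p = 0.000245), while Pfkfb3, whose product makes a glycolysis activator, fell by 2.75 (SE 0.32, adjusted p = 0.000515). The same 4 genes passed in each class. In carcinosarcomas 7 of the 19 rose and 2 fell, the other being Aldoc, an aldolase, at -2.92 ± 0.46 (adjusted p = 0.00485), and in carcinomas 5 rose and 1 fell. The shares of all genes tested were 9.83% and 13.1% in carcinosarcomas and 1.58% and 1.92% in carcinomas.

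Against non-TRIM24 tumors, carcinosarcomas were higher in Loxl2 (2.97 ± 0.54, adjusted p = 0.0146), P4ha1 (1.77 ± 0.34, adjusted p = 0.018) and P4ha2 (1.42 ± 0.37, adjusted p = 0.0446) and lower in Trf (-3.84 ± 0.75, adjusted p = 0.0186) and Zfp395 (-1.31 ± 0.35, adjusted p = 0.047). These calls held under 7 (Loxl2), 8 (P4ha1), 3 (P4ha2), 7 (Trf) and 3 (Zfp395) of 11 alternatives, with adjusted p-values up to 0.162. Of the glycolytic targets Pgk1 (2.04 ± 0.42, adjusted p = 0.0225), the lactate exporter gene Slc16a3 (3.27 ± 0.76, adjusted p = 0.0303) and Pkm (1.76 ± 0.42, adjusted p = 0.0355) were higher, calls that held under 6, 4 and 3 of 11 alternatives (adjusted p up to 0.114, 0.218 and 0.186). In carcinomas against non-TRIM24 tumors P4htm was the 1 gene of these 3 lists that passed. It entered the test through the groups in which it was high, and its call held under 6 of 12 alternatives. In that comparison 0.0298% of all genes tested were lower and 0 higher, and in carcinosarcomas 3.24% were higher and 1.52% lower.

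Genes with the most similar pattern over the 10 first libraries of batch 1, by Pearson's r of log2(TPM + 1) among 16050 genes, are given as a description, since the points share group structure. For Epas1 they were Slc22a5 (r = 0.99), Cd55 (0.984) and Mknk2 (0.981), and for Egln3 Spdl1 (0.936), Orc4 (0.934) and Fbxl19 (0.931). For Car9 they were Slc25a37 (0.966), Ptpn13 (0.946) and Ajuba (0.937). Car9 and Ptpn13 were both highest in carcinomas 89 and 3956, where Ptpn13 stood at 21.9 and 36.3 TPM against 1.25 to 6.97 TPM in the other 8 libraries. For Ankrd37 they were S100a9 (0.97), Retnlg (0.963) and Mydgf (0.96), and the first 2 are neutrophil genes. S100a9 was 2.26 to 4.52 TPM in glands, 32.7 TPM in carcinoma 3956 and 847 TPM in carcinoma 89, which also held the lowest and the highest Ankrd37 of the 6 tumors. The summed level of 5 neutrophil markers was 6.35 to 12.6 TPM in glands, 93.2 to 2047 TPM in carcinomas and 227 to 294 TPM in carcinosarcomas. All 5 rose in Trim24COE tumors, where 7.96% of all genes tested rose. Retnlg was 0.12 to 0.42 TPM in the glands, and Cxcr2 was 0.08 to 0.39 TPM in glands 392, 417_3 and 517_3. These 2 genes passed the filter through the tumors in which they were high, so their rise carries less weight. The part of neutrophil markers in the Ankrd37 values was not tested. Macrophage markers moved with the tumors too: 7 of 8 rose, beside 7.96% of all genes tested. Their summed level was 257 to 832 TPM in glands, 1189 to 2619 TPM in carcinomas and 1854 to 3469 TPM in carcinosarcomas. Their part in the values of the hypoxia genes was not tested either.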

How the data were processed

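RNA-seq of mouse mammary tumors and glands was used as deposited. The authors trimmed reads with Trimmomatic, aligned them to GRCm38 with STAR and the GENCODE M14 transcriptome and estimated abundance as TPM with RSEM, and the deposited tables hold these TPM values. The submitters' processing notes also name TopHat, Cufflinks, DESeq, edgeR, FastQC and mm10. Library strand settings and read counts were not used here, so depth and counting error are unknown. The members and gene lists were chosen with earlier results of these data known.

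Groups came from the sample labels. Genes reaching 1 TPM in a number of libraries equal to the mice of the smaller group were tested by limma 3.58.1 in R 4.3.3 (lmFit, eBayes with trend, two-sided) on log2(TPM + 1), with Benjamini-Hochberg adjustment over all genes tested and a threshold of 0.05. A log2 fold change on this scale understates the change of low genes. Within batch 1, each mouse entered with its first library. Comparisons with non-TRIM24 tumors used 15 libraries, a batch term and the mouse as a block by duplicateCorrelation (consensus correlation 0.951). Each mouse is 1 replicate of its group, and p-values measure the spread between these mice. No member was kept out by the filter, so no single-gene permutation test was run. Positions are those of GENCODE M21 on GRCm38, in which Epas1 and Ndrg1 carry a later ID version than in the tables. The sequences are from RefSeq.

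List genes were named from among the 3 lowest adjusted p-values past the threshold in each list and comparison, higher and lower separately. Vhl, Vegfa and the library values of single list genes were picked with their values in view. The fitting code was checked on simulated expression with seeded changes. That simulation scaled down the spread of each gene and drew libraries independently, with no mouse or batch effect. It therefore checked the code and not the power of these tests. Alternatives changed the pseudocount, filter, scaling, libraries in the fit, batch term, mouse block, covariates and each mouse in turn. Fits with 2 of the 4 glands were added after the data were seen. A covariate is the mean log2(TPM + 1) of a marker list. The endothelial one did not overlap between carcinomas and glands, nor the adipocyte one between carcinosarcomas and glands. Such fits cannot part the marker level from the group. Leaving out mouse 133 or 3956 across batches kept the consensus correlation of the full fit.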

Additional observations from a re-analysis of the deposited data

Results flagged for a closer look

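In each of the 10 genes the 4 control glands and the 6 Trim24COE tumors were examined for a single mouse far from the rest by Dixon's test, which gives 20 groups, and about 1 in 20 groups is flagged by chance. In 2 of them a mouse stood apart. Carcinoma 89 had 86.5 TPM of Car12, and its gap to the next tumor took up 0.86 of the range of the 6 tumors. Carcinosarcoma 897 had 209.7 TPM of Bnip3, with a gap of 0.848 of the range. Leaving out carcinoma 89 gave a log2 change of Car12 of 0.10 (adjusted p = 0.934 by limma) in Trim24COE tumors against glands, and leaving out carcinosarcoma 897 gave one of Bnip3 of 0.06 (adjusted p = 0.971 by limma).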

How the results depend on the processing

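The number of the 10 hypoxia genes past the threshold was 4 in Trim24COE tumors against glands, and 2 with the endothelial covariate. It was 3 in carcinosarcomas against glands, 1 with the endothelial covariate and 5 with glands 133 and 392 only. It was 1 in carcinomas against glands, 0 without a filter or with the endothelial covariate, and 2 with all batch 1 groups fitted together or with either pair of glands only. In carcinosarcomas against non-TRIM24 tumors it was 1, 0 without a filter or with 15 libraries as separate samples, and 2 with median ratio scaling or no batch term. Leaving out each mouse in turn gave 2 to 4 in Trim24COE tumors against glands (2 without gland 517_3), 2 to 3 in carcinosarcomas, 0 to 1 in carcinomas (0 without carcinoma 3956, gland 417_3 or gland 517_3), 0 to 1 in non-TRIM24 tumors against glands (1 without FVB001) and 0 to 1 in carcinosarcomas against non-TRIM24 tumors. In the other 2 comparisons it was 0 under each alternative. Bnip3 turned direction with glands 133 and 392 only, to -1.64 in Trim24COE tumors and -1.84 in carcinomas. These gland pairs were chosen after seeing the data. The causes were not tested. Over all genes, Trim24COE tumors against glands had 2597 calls, and 1283 with the adipocyte and 1320 with the endothelial covariate. Carcinosarcomas had 3511, 1623 without a filter, 351 with the endothelial covariate, 5837 with glands 417_3 and 517_3 only and 1345 without tumor 64. Carcinomas had 542, 46 without a filter, 1239 with all batch 1 groups, 859 with the adipocyte and 11 with the endothelial covariate, 1224 and 1255 with each pair of glands and 72 without gland 517_3. Between the classes there were 99, and 0 without a filter, without tumor 64 or without tumor 89, while 293 were called without tumor 3956. Non-TRIM24 tumors against glands had 119, 48 without a filter, 180 with median ratio scaling, 18 with separate samples, 367 with no batch term, 0 within batch 2, 476 without gland 133 and 6 without FVB002. Carcinomas against non-TRIM24 tumors had 5, 2 with a pseudocount of 0.1, 12 without a filter, 3 with separate samples, 10 with no batch term, 0 within batch 2 and 66 without tumor 273_5. Carcinosarcomas against non-TRIM24 tumors had 799, 208 without a filter, 13 with separate samples, 1628 with no batch term and 36 without FVB002. By limma the fits with 0 calls had 702 to 2871 genes at an unadjusted p under 0.05. No paired analysis was possible because the replicates are single mice whose numbers are not shared between groups. Depth is unknown, so counting error at low TPM, as for P4htm, Car9 and Ankrd37 in glands, could not be given.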
